A study of Mus musculus with 8 samples.

Results

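The photoreceptor outer segment and trafficking genes are 9 mouse genes (Prph2, Rom1, Rp1, Tulp1, Abca4, Reep6, Aipl1, Prom1 and Kcnv2) that build the light-sensing outer segment, supply it with protein or set the electrical response of the cell that carries it. They were taken by name, and all 9 were among the 18193 genes that the array's annotation names by a single symbol. A total of 11 of its 45037 probe sets, each a group of short probes for 1 or more transcripts, read them. Rp1 and Aipl1 had a pair of probe sets each, and the first named in the text is the brighter. The samples were 4 retinas from injected eyes, labelled as a compound-based treatment, and 4 freshly dissected control retinas labelled as time 0 d, each hybridised to its own Affymetrix expression array. The labels give neither compound, dose, interval, strain, age nor genotype. They do not say whether the retinas of a group are from different mice, so a p-value reflects the spread among these 8 samples and part of that spread may be technical. With no sham-injected samples to set beside them, effects of the needle, of the compound and of tissue handling cannot be told apart.

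Rods and cones renew their outer segments daily by adding membrane discs at the base, and all of the protein for them is made in the inner segment and carried through the connecting cilium. Prph2 and Rom1 are tetraspanins that shape the disc rim, Prom1 acts where new discs form, Rp1 binds the microtubules of the axoneme and Abca4 is the rim transporter that clears retinaldehyde adducts. Tulp1 serves protein transport to the outer segment, Reep6 shapes endoplasmic reticulum and vesicle membranes of rods, Aipl1 is the chaperone of phosphodiesterase 6 and Kcnv2 is a silent subunit of inner segment potassium channels. Mutations in the human versions of these genes cause inherited retinal dystrophies.

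RefSeq promoter windows (GRCm38.p6, 250 bases before to 50 after a gene's start) were at hand for 6 of the 9 genes, in 7 windows, and they are shown because these genes share expression in photoreceptors. TAATCC, the DNA word bound by the photoreceptor homeodomain factor Crx, lay on either strand in 2 of the 7 windows, those of Abca4 and Aipl1, against 7.1% of all 32851 windows. Its 5-letter part TAATC, which every TAATCC also holds, lay in 5 of the 7 windows, from 5 of the 6 genes, against 22% of all windows. TGCTGA, part of the site of the rod factor Nrl, lay in 1 of the 7, that of Aipl1, against 19.5% of all windows. These words were chosen for what is known of photoreceptor promoters, and a match is a description of the letters. The windows of 4 genes run 5′ to 3′ along the gene, with TAATC or its other strand GATTA in capitals.
Aipl1, chr11:72037460-72037759, minus strand: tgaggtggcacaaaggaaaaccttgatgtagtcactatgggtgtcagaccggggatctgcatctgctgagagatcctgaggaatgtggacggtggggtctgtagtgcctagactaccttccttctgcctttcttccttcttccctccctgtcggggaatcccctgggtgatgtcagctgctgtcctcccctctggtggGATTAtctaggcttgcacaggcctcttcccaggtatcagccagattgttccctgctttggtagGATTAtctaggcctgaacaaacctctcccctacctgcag
Abca4, chr3:122044210-122044509, plus strand: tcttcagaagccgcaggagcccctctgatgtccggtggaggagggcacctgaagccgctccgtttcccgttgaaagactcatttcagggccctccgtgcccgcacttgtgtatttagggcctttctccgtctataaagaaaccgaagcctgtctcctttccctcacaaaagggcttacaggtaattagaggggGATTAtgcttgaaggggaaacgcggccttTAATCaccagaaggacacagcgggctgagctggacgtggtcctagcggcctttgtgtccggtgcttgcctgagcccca
Prph2, chr17:46910228-46910527, plus strand: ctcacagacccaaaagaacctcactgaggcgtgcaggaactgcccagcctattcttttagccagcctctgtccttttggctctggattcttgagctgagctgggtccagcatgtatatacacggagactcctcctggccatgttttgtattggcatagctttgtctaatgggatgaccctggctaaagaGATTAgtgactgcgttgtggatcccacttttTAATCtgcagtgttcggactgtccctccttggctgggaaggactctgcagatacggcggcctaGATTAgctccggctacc
Rom1, chr19:8929307-8929606, minus strand: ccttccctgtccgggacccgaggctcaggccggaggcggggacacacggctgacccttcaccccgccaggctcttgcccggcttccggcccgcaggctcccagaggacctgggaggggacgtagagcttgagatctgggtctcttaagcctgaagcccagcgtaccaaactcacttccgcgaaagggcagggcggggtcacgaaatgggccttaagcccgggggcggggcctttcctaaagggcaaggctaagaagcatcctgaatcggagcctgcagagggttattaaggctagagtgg
TAATCC was read on the strand opposite the gene, printed here as GGATTA, at positions -53 and 11 in the Aipl1 window and at position -58 in the Abca4 window, counted from the gene's start with no position 0. The Prph2 window had TAATC at 3 places, and the Rom1 window held none of the 3 words.

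Values are intensities on a common scale after quantile normalisation between arrays, and a log2 value is log2(intensity + 16). Of the 27022 probe sets that passed a filter on dim signal (mean log2 value at or above 8.5, about 345 intensity units), 0 passed limma's test at an adjusted p of 0.05 in either direction (0% called), 1889 had an unadjusted p under 0.05 and the smallest adjusted p was 0.102. The unmoderated test also called 0. Of the 11 member probe sets 10 passed the filter, covering 8 of the 9 genes, and none of these 10 passed the test, with limma adjusted p from 0.582 to 0.98. The 12 measured rod genes of a marker list had control means from a log2 value of 10.77 to 16.32 and the 9 cone genes from 9.08 to 15.31, all above the floor, as a retina should give. The ratio of the 3′ to the 5′ probe set of Gapdh, a measure of RNA integrity, was 6.23, 5.26, 8.82 and 6.71 on injected arrays 1 to 4, against 3.64, 3.95, 3.36 and 4.68 on control arrays 1 to 4 (p = 0.0286 in an exact two-sided permutation test, which can go no lower with 8 arrays, and 0.0571 adjusted over the 2 ratios looked at). The groups did not overlap in that ratio. In the actin ratio they overlapped, at 43.3 to 59.7 on injected and 39.2 to 57.2 on control arrays (exact permutation p = 0.543). The actin ratio was thus high on every array of both groups. The part of RNA integrity in the results that follow was not tested. Injected replicate 3 also had the lowest array weight (0.191, against 1.83 for control replicate 4).

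In outline, Reep6 was the 1 member with an unadjusted p under 0.05, and its signal was lower in injected retina without passing the adjusted threshold. Tulp1 and Rom1 had negative differences with wide intervals, and Rp1, Abca4, Aipl1, Prom1 and Kcnv2 had differences between -0.16 and 0.13 log2 units. The 95% interval of the difference held 0 for 9 of the 10 tested probe sets, and 8 of the 10 differences were negative, against 52.4% of all probe sets tested. The negative ones include both Aipl1 probe sets and Prom1, which lay near 0 and turned positive on the deposited scaling. The median difference of the 8 tested member genes was -0.14, beside -0.011 over all 12886 tested genes, -0.29 over 12 rod genes and -0.77 over 9 cone genes. These lists were not tested against each other. A group difference can come from fewer photoreceptors or from less RNA in each, which cannot be told apart in whole retina.

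**Figure D1:**
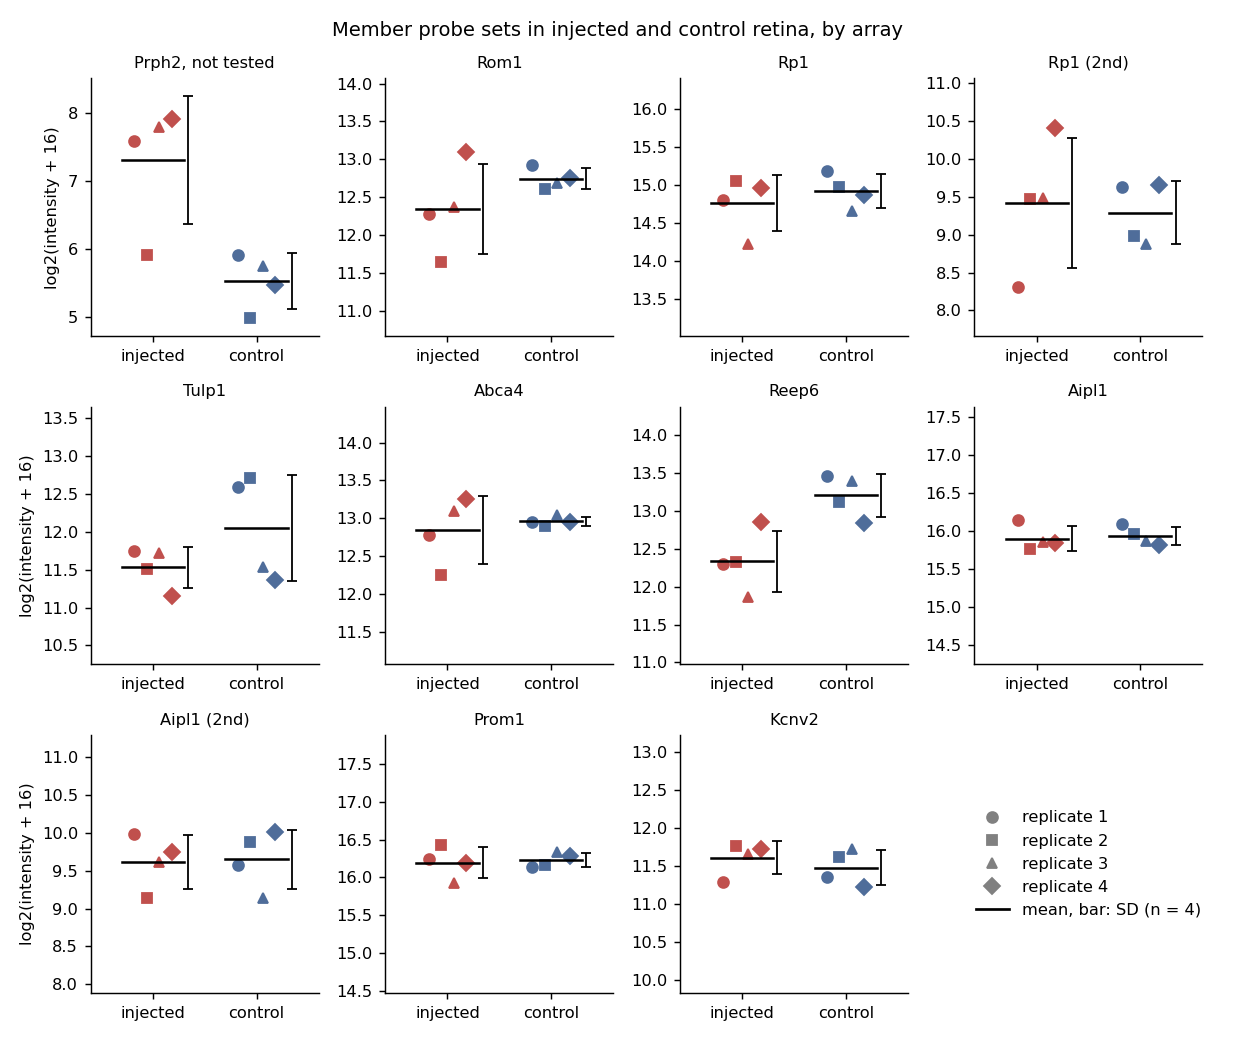
Log2(intensity + 16) of the 11 member probe sets on each array, injected at the left and control at the right of each panel, with marker shape giving the replicate, the black line the mean and the bar beside it the SD (n = 4 each). Panels have their own vertical ranges; Reep6 shows 3 of 4 injected arrays below all controls, while Prom1 and the first Aipl1 probe set show groups that lie over each other.

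Among the disc rim genes, Rom1 had 4933, 3179, 5270 and 8734 intensity units on injected arrays 1 to 4, against 7778, 6204, 6570 and 6882 units on control arrays 1 to 4. Of the injected arrays 3 lay below all controls and the other lay above all controls. The log2 difference was -0.40 ± 0.29 (SE), with a 95% interval from -1.05 to 0.25 (limma adjusted p = 0.754). Without injected replicate 2 the difference was -0.16, and without injected replicate 4 it was -0.65. The injected log2 values had an SD of 0.60 and the control values one of 0.14 (n = 4 each).

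Prph2, the partner of Rom1, could not be followed. The transcript is known to be abundant in retina, yet its 1 probe set read 177, 44.0, 207 and 226 units on injected arrays 1 to 4, against 44.4, 15.6, 38.0 and 28.2 units on control arrays 1 to 4. All 8 values lie under the floor of 345 units, and whether this probe set reports Prph2 was not tested. It entered no test of its own in the main setting, and without the filter it was tested and not called. No fold is given, and the planned comparison of the Rom1 and Prph2 differences is void.

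Abca4 had 6995, 4854, 8758 and 9799 units on injected arrays 1 to 4, against 7882, 7614, 8443 and 7872 units on control arrays 1 to 4. The injected arrays fell on both sides of a narrow control range, 2 below it and 2 above it. The log2 difference was -0.11 ± 0.24 (SE), interval -0.64 to 0.42, and it was 0.085 without injected replicate 2. As for Rom1, the lowest Abca4 value of all 8 arrays was that of injected replicate 2 and the highest that of injected replicate 4.

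Prom1, the disc morphogenesis protein, had 77476, 87890, 62278 and 74889 units on injected arrays 1 to 4, against 72322, 73568, 82462 and 79826 units on control arrays 1 to 4. The control values lay inside the range of the injected values. The log2 difference was -0.035 ± 0.18 (SE). Its 95% interval ran from 74.2% to 128% of the control level, so a larger fall than that lower bound lies outside the interval. The sign is not settled, since the difference was 0.046 without injected replicate 3 and 0.090 on the deposited scaling.

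Rp1, the axonemal protein, had 28679, 33946, 19118 and 31889 units on injected arrays 1 to 4 at its first probe set, against 37409, 32130, 25944 and 29782 units on control arrays 1 to 4. Injected replicate 3 was the lowest of the 8, and the other injected arrays lay within the control range. The log2 difference was -0.16 ± 0.23 (SE), interval -0.68 to 0.36, and 0.019 without injected replicate 3. The second probe set ran from 302 to 1346 units in injected retina and from 456 to 792 units in control retina, with a difference of 0.13 ± 0.41 (SE). It had the opposite sign to the first and an interval from -0.79 to 1.06. Rp1l1, the other axonemal member of this gene family, differed by -0.015 ± 0.20 (SE).

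Of the trafficking genes, Tulp1 had 3417, 2896, 3352 and 2256 units on injected arrays 1 to 4, against 6182, 6656, 2946 and 2618 units on control arrays 1 to 4. All 4 injected values lay near those of control replicates 3 and 4 and well under those of control replicates 1 and 2. The log2 difference was -0.52 ± 0.34 (SE), interval -1.28 to 0.24 (limma adjusted p = 0.745). The spread came mainly from the controls, with a log2 SD of 0.27 in injected and 0.70 in control retina (n = 4 each). Without control replicate 2 the difference was -0.30, and without control replicate 4 it was -0.74.

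Reep6, of the rod endoplasmic reticulum, had 5032, 5111, 3701 and 7358 units on injected arrays 1 to 4, against 11235, 8859, 10802 and 7354 units on control arrays 1 to 4. Injected replicates 1, 2 and 3 lay below every control, and injected replicate 4 was level with control replicate 4, the lowest control. The log2 difference was -0.87 ± 0.25 (SE), interval -1.43 to -0.31, which puts injected retina at 54.6% of the control level (37.1% to 80.5%). By limma its adjusted p was 0.582, and by p-value it stood at rank 288 of 27022 probe sets. Under the 19 other settings and left-out arrays the difference stayed between -1.11 and -0.71 and the adjusted p between 0.296 and 0.889. In all, 1 of the 10 member probe sets was lower at an unadjusted p under 0.05, against 3.33% of all probe sets tested, and 0 of 10 were higher, against 3.66%.

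No member probe set had groups that failed to overlap, against 2.6% of all probe sets that were lower in this way and 2.47% that were higher. The Reep6 groups overlapped by the level pair of arrays alone. On the deposited scaling, in which injected replicate 4 read 7249 units and control replicate 4 read 7684 units, the Reep6 groups did not overlap. The share of all probe sets on that scaling is not given here. The lowest Reep6 value, in injected replicate 3, came from the array with the highest Gapdh 3′ to 5′ ratio and the highest summed signal of 8 microglia and leukocyte genes. Of all probe sets tested, 29.5% were lowest on that array. Without that array the Reep6 difference was -0.71, and whether these values are linked was not tested.

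Of the marker lists, the microglia and leukocyte, cone and ganglion cell lists did not overlap in summed intensity between the groups. The rod, lens, pigment cell, Muller glia and bipolar cell lists did. The summed intensity of the 8 tested microglia and leukocyte genes, of 9 listed, ran from 68051 to 166653 units on injected arrays and from 32540 to 55938 units on control arrays. The 12 rod genes summed to between 233980 and 377448 units on injected arrays and between 331988 and 365134 units on control arrays, which overlap. The 9 cone genes summed to between 51174 and 116620 units on injected arrays, all below the controls at 124199 to 134789 units. The 6 ganglion cell genes summed to between 100042 and 121749 units on injected arrays, also all below the controls, at 126186 to 138321 units. The brightest genes weigh most in such sums. Taken singly, 2 of the 6 ganglion cell and 5 of the 9 cone genes were lower without overlap, against 2.6% of all probe sets tested. Of the 8 microglia and leukocyte genes 5 were higher without overlap, against 2.47%. The 6 tested lens genes, of 10 listed, summed to between 4811 and 77244 units on injected arrays and between 1529 and 15585 units on control arrays, and the 9 tested pigment epithelium and pigment cell genes, of 11 listed, to between 35761 and 109186 units on injected arrays and between 80504 and 346149 units on control arrays. Control replicate 2 had the highest pigment cell mean. The highest lens signal was that of injected replicate 2, the array with the lowest Rom1 and Abca4 values, and whether these are linked was not tested. On the log2 scale the rod mean of injected replicates 1 to 4 lay -0.18, -0.46, -0.51 and 0.091 from that of the controls, so the replicate with the highest Rom1, Abca4 and Reep6 among injected arrays was also the one with the highest rod signal. Whether the differences of Reep6 and Rom1 follow these lists was not tested.

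**Figure D2:**
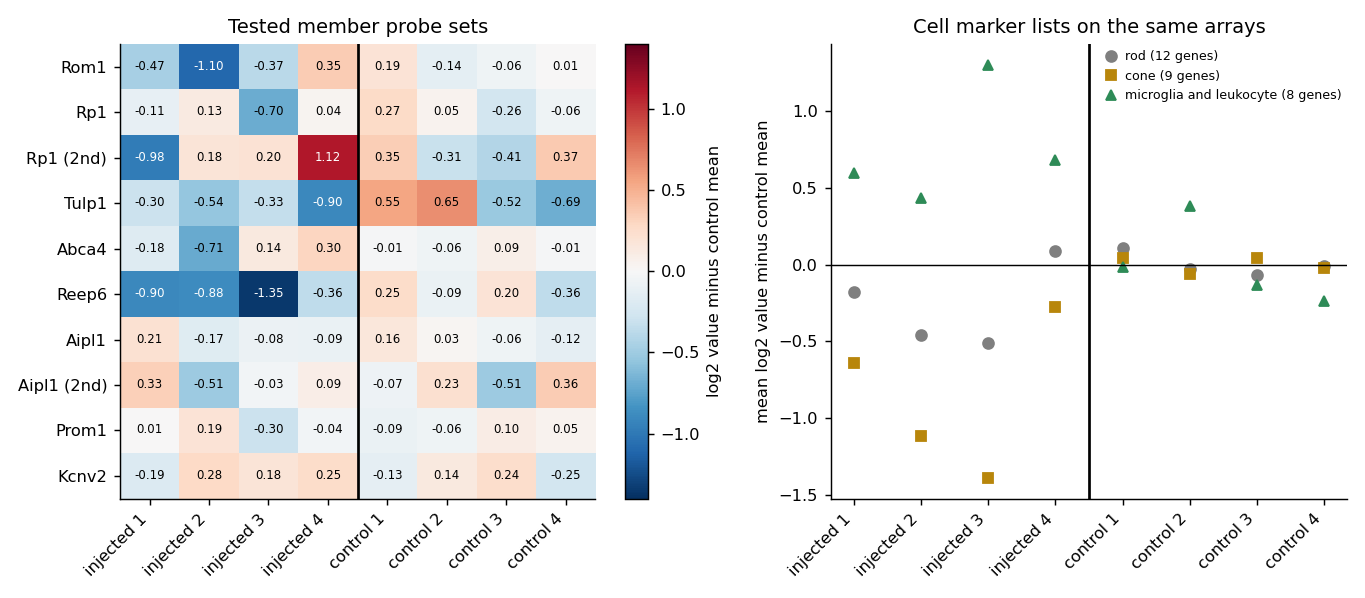
Left, log2 value of each tested member probe set minus its control mean on the 8 arrays (blue lower, red higher, with the value in each cell); right, the mean of the same quantity over rod, cone and microglia and leukocyte marker genes. Injected arrays are left of the black line and control arrays right of it; Reep6 is negative on all 4 injected arrays, and Rom1 and Abca4 are lowest in injected replicate 2.

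Aipl1, the chaperone of phosphodiesterase 6, had 72511, 55451, 59079 and 58766 units on injected arrays 1 to 4 at its first probe set, against 69735, 63784, 59852 and 57517 units on control arrays 1 to 4. The groups lay over each other, with a log2 difference of -0.033 ± 0.17 (SE) and an interval from 74.7% to 128% of the control level, the narrowest of the 10 tested. Its sign turned on the deposited scaling (0.069). The second probe set, whose name marks it as open to related transcripts, ran from 547 to 996 units in injected and from 547 to 1014 units in control retina, with a difference of -0.030 ± 0.26 (SE). For the client enzyme, the subunit genes Pde6a, Pde6b and Pde6g differed by 0.21 ± 0.18, -0.64 ± 0.24 and -0.46 ± 0.21 log2 units (SE), none past the adjusted threshold (limma adjusted p at least 0.709).

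Kcnv2, the potassium channel subunit, had 2481, 3452, 3208 and 3379 units on injected arrays 1 to 4, against 2592, 3124, 3361 and 2375 units on control arrays 1 to 4. It was the 1 tested gene of the set with a positive difference, 0.13 ± 0.20 log2 units (SE), interval -0.31 to 0.57, and its groups overlapped. With arrays centred on their medians it was -0.077. Kcnv1, its nearest relative, read below the floor and was not tested.

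**Figure D3:**
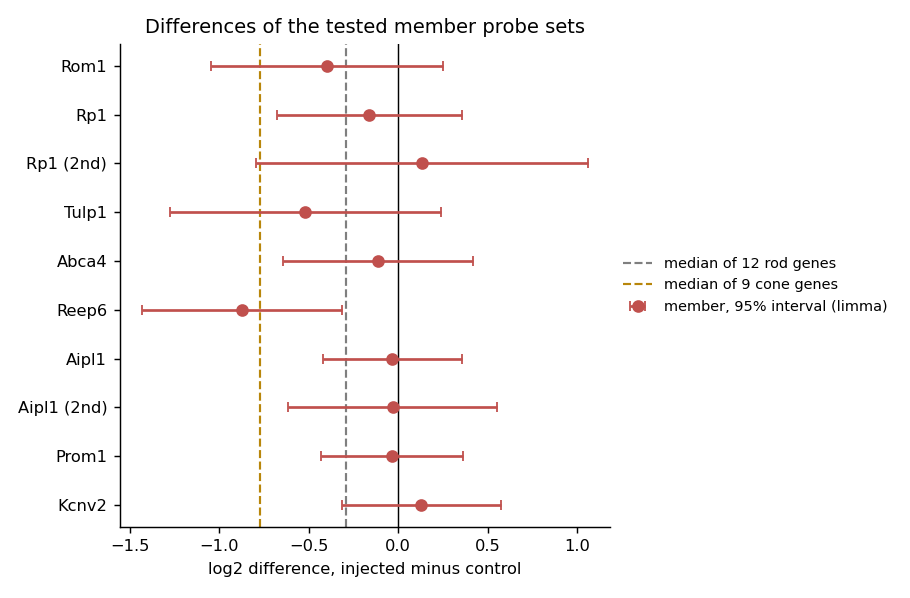
Log2 difference, injected minus control, of the 10 tested member probe sets with its 95% interval from limma (n = 4 arrays each); "2nd" marks the second probe set of a gene and dashed lines mark the median difference of 12 rod and 9 cone genes. Only the interval of Reep6 lies wholly below 0, from -1.43 to -0.31.

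Genes around the members were taken from 7 lists of 54 genes, of which 47 had a probe set with a single symbol and 42 passed the filter. Their median difference was 0.040, 16 were negative and 26 were positive, beside 52.4% negative over all probe sets tested. In limma 0 passed the adjusted threshold and 1 had an unadjusted p under 0.05 (Prcd, lower). Over all probe sets tested, 3.33% were lower at that unadjusted p. Among 7 other disc, rim and axoneme genes, 5 were negative and 2 positive, with a median of -0.056. Prcd, a small protein of rod discs, had log2 values of 12.65, 12.59, 12.75 and 12.93 on injected arrays 1 to 4, against 13.17, 13.52, 13.19 and 12.95 on control arrays 1 to 4, a difference of -0.48 ± 0.19 (SE; limma adjusted p = 0.709). Every injected value lay below every control, by a narrow step between injected and control replicate 4. Prcd was the 1 such gene of the 42, against 2.6% of all probe sets tested. The disc cadherin Cdhr1 differed by -0.42 ± 0.32 (SE).

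Among 10 genes of the connecting cilium and its gate, 3 were negative and 7 positive, with a median of 0.16. Nphp4, of the transition zone, differed by 0.77 ± 0.36 (SE) and Rpgr, a gate protein, by 0.55 ± 0.32. Both were highest in injected replicate 3, at log2 values of 11.20 and 14.13. Of 6 genes for transport of lipid-anchored proteins, 2 were negative and 4 positive. Unc119, which carries myristoylated transducin, differed by -0.64 ± 0.35 (SE) with injected values from 11.88 to 13.58, and Arl2bp by 0.28 ± 0.19.

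The 9 intraflagellar transport and motor genes were split 4 negative to 5 positive, with Kif3a, a subunit of kinesin-II, at -0.35 ± 0.20 (SE) and Ift172 at -0.58 ± 0.52. Of the 6 tested Tubby and REEP relatives 5 were positive. The REEP genes tested besides Reep6 were Reep1 at 0.061 ± 0.18, Reep2 at -0.11 ± 0.27, Reep3 at 0.37 ± 0.35 and Reep5 at 0.22 ± 0.27 log2 units (SE), and Tub, the relative of Tulp1, differed by 0.27 ± 0.21. Whether Reep6 differed from its relatives was not tested. The 4 inner segment and matrix genes had a median of 0.12, with Impg1 at 0.27 ± 0.20 and the retinoid-binding protein Rbp3 at 0.19 ± 0.21 (SE). The smallest limma adjusted p over all of these lists was 0.709.

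**Figure D4:**
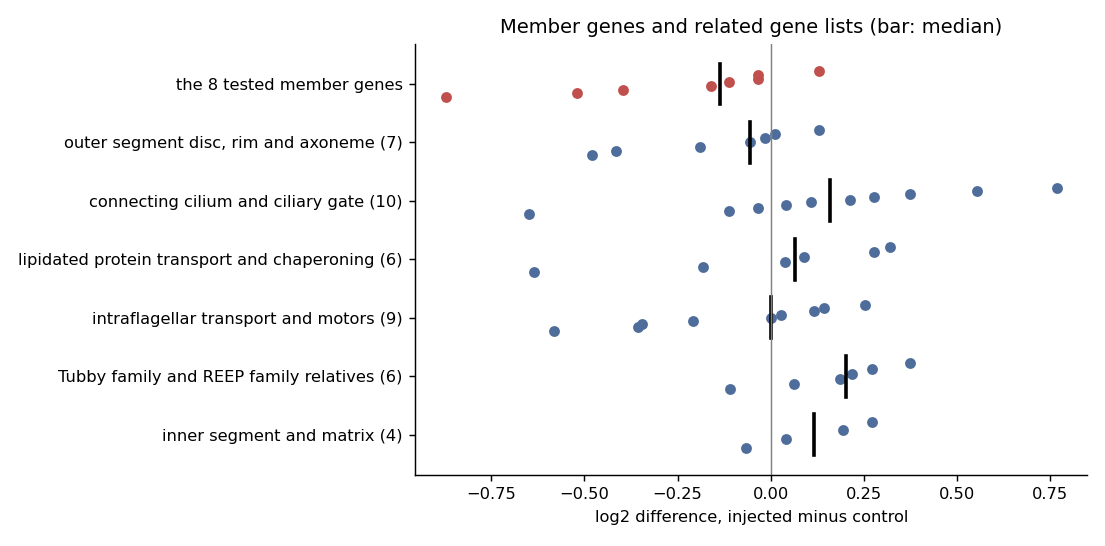
Log2 difference, injected minus control, of the 8 tested member genes (red) and of the tested genes in 6 related lists (blue), 1 point per gene, with a black bar at each median. Medians lie between -0.14 for the member genes and 0.20 for the Tubby and REEP relatives, and the member genes and all 6 lists have points on both sides of 0.

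As a description over the 8 arrays, the genes whose values ran most like the mean profile of the 9 members were Rasgrf1 (Pearson r = 0.98), Zfp608 (0.967), Ehmt1 (0.961), Gngt1 (0.955), Rpl7a (0.953) and Heatr5a (0.947), out of 12878 genes compared. The dim Prph2 probe set enters that profile. A profile of the 8 tested members alone was a choice made after the values were seen. Its nearest genes were Ccser2 (r = 0.974), Pde6g (0.959), Rpl37a (0.932), Mrpl55 (0.931), Rpl7 (0.928) and Gkap1 (0.927). Of all the genes named in these 2 lists, Gngt1 and Pde6g encode rod subunits of transducin and of phosphodiesterase 6. More of them, Rpl7a, Rpl37a, Rpl7 and the mitochondrial Mrpl55, encode ribosomal proteins. With so many genes compared over 8 arrays, high values of r are found for some genes whatever the profile.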

How the data were processed

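RNA of 8 mouse retina samples, 4 injected and 4 control, was hybridised to 1 Affymetrix array each, and groups and replicate numbers come from the sample titles. The authors deposited 1 linear intensity per probe set and array, with a trimmed mean (2% left out at each end) of 2500 on every array, as scaling to a common target gives; the software is not given in the sources used here. Of 45101 probe sets, 64 array controls were used only for quality. Of the rest 34945 had 1 gene symbol, 932 several and 9160 none. Array medians differed by up to 1.55 times, and the intensities were quantile-normalised (limma 3.58.1 under R 4.3.3) before taking log2(intensity + 16). Probe sets at or above the 40th percentile of mean log2 value (27022) were tested with lmFit and eBayes (3.3 prior degrees of freedom) and Benjamini-Hochberg adjustment over all of them. Each log2 difference is injected minus control from the authors' deposited intensities. The number of arrays limits the precision, and detection calls were not used here.

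The members, gene lists and tests were chosen with earlier results of these data known. Named were all members, the 2 genes of smallest p in each related list and the 6 genes most like the members' mean profile; the other REEP, phosphodiesterase and Rp1l1 values were added after they were seen. Of 2 planned exact permutation comparisons of partner genes, 1 is void because of the dim Prph2 probe set and the other is not reported here. Each result was recomputed with 1 or 64 added in place of 16, without the filter, with the scaling as deposited or centred on medians, with array weights (statmod 1.5.0), a trended robust prior or unmoderated variances, with a block for the replicate number, with a single probe set for each gene and without each array in turn. Leaving out both control replicate 2 and injected replicate 3 was added after the data were seen. The fit was tested on 5 simulated sets of 27022 probe sets with 200 changed: it recovered 12.6% of changes of 1 log2 unit and 57.8% of changes of 2, with 4.4 false calls a set. Plots were made with Python 3.11.15 and matplotlib 3.10.9.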

Additional observations from a re-analysis of the deposited data

Results flagged for a closer look

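The Prph2 probe set in injected retina had 1 array far from the other 3. Injected replicate 2 read a log2 value of 5.91 and the next lowest injected array 7.59, so the gap was 0.839 of the whole range of the group, above the limit of Dixon's test for 4 arrays. All of these values lie below the floor of the filter. The 11 member probe sets in 2 groups gave 22 such checks, and chance marks about 1 in 20 groups in this way.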

How the results depend on the processing

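No member probe set was called under any of the 19 alternatives. Over all probe sets, array weights gave 7 higher and 1 lower, and leaving out single arrays gave 0 to 29 higher and 0 to 5 lower, the highest counts without injected replicate 4. The number of member probe sets that were lower with groups that did not overlap was 1 on the deposited scaling (Reep6), 2 with median centring (Reep6 and Abca4) and 0 to 2 with single arrays left out. No share over all probe sets is given for these settings, so these counts are a description and not a result about the members. Median centring moved the median of all tested probe sets to -0.16, against -0.020 in the main setting. Differences near 0 changed sign. On the deposited scaling they were 0.069 for the first and 0.12 for the second Aipl1 probe set and 0.090 for Prom1. With array weights they were 0.013 for the first Aipl1 probe set, 0.039 for Prom1 and -0.19 for the second Rp1 probe set, and with median centring Kcnv2 was at -0.077. With both control replicate 2 and injected replicate 3 left out they were 0.037 for the first Rp1 probe set, 0.050 for the second Aipl1 probe set and 0.026 for Prom1. With single arrays left out the ranges were -0.26 to 0.019 and -0.20 to 0.50 for the first and second Rp1 probe sets, -0.25 to 0.085 for Abca4, -0.12 to 0.019 and -0.20 to 0.13 for the first and second Aipl1 probe sets, -0.11 to 0.046 for Prom1 and 0.045 to 0.24 for Kcnv2. The cause was not tested.

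The planned Rom1 minus Prph2 comparison is void, since the Prph2 probe set lay under the floor on all arrays, and its values carry no reading. They were -2.41 to -2.02 with single arrays left out, -2.17 with the replicate number as a block, -1.88 without control replicate 2 and injected replicate 3, and -2.60 and -1.56 with added constants of 1 and 64. Same-numbered arrays deviated from their group means with correlations of -0.029 to 0.084, and 1 of 4 injected arrays correlated best with its own number, so the numbers were not taken to pair the samples. The replicate block left 0 calls. The power on simulated data limits what 4 arrays a group can show for differences under 1 log2 unit, which holds for every member tested.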

Other observations

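Of the 42 tested genes in the related lists, 16 (38.1%) had their highest value of the 8 arrays in injected replicate 3, and 8 (19%) had their lowest there, while control replicate 2 held the most lowest values, 10 (23.8%). Over all 27022 tested probe sets 27.6% were highest and 29.5% lowest in injected replicate 3, and 13.2% were lowest in control replicate 2. Of the 8 tested member genes 0 had their highest value in injected replicate 3 and 3 had their lowest there (Rp1, Reep6 and Prom1). Injected replicate 2 also held 3 of the 8 lowest values, against 9.96% of all probe sets, and 2 of the 8 highest. Tub, Nphp4, Rpgr, Reep3, Reep5, Arl2bp and Impg1 were all highest in injected replicate 3, with log2 values of 12.75, 11.20, 14.13, 14.59, 13.90, 14.81 and 12.23.

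The log2 SD was larger in injected than in control retina for 7 of the 10 tested member probe sets, beside 72.5% of all tested probe sets. Tulp1 was one of the exceptions: its 4 control values formed 2 pairs, replicates 1 and 2 at log2 values of 12.60 and 12.70 and replicates 3 and 4 at 11.53 and 11.36.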
